A study of Homo sapiens with 16 samples.

Results

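The 10 genes described here are FOS, FOSB, FOSL1, FOSL2, JUN, JUNB, JUND, ATF3, EGR1 and IER3, and they were taken by symbol from the 23396 genes listed in any of the 4 comparisons of the study. All 10 were in each of the authors' deposited tables. The study sequenced poly(A) RNA of U2OS, an established human osteosarcoma line with wild-type p53. Before treatment, cells were transfected with siControl, a control siRNA, or with siRFX7, which targets the mRNA of the transcription factor RFX7. They then received DMSO or 10 µM Nutlin-3a in DMSO for 24 h. Nutlin-3a keeps MDM2 from binding p53 and so stabilises p53. Each of the 4 groups (siControl with DMSO, siControl with Nutlin-3a, siRFX7 with DMSO, siRFX7 with Nutlin-3a) had 4 libraries, and all 16 came from transfected, solvent-exposed cells of this single line. The labels do not say whether libraries of a group came from separate cultures, so p-values measure the spread between these libraries, which may be technical. They name 1 siRNA label per target and give no sequence. Because RNA was taken from whole cultures, fewer cells expressing a gene and less RNA per cell cannot be told apart.

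The deposited comparisons hold no value of a single library. For each gene they give a base mean, the normalised read count averaged over its 8 libraries, and a log2 fold change with its standard error (SE). A gene was called higher or lower at a Benjamini-Hochberg adjusted p under 0.05 over all genes of the table. RFX7 itself was at 18.6% of its siControl level under DMSO and at 19.4% under Nutlin-3a, per the authors' deposited tables, and the p53 targets CDKN1A and MDM2 rose with Nutlin-3a by 3.24 ± 0.04 and 2.89 ± 0.04 (SE) on the log2 scale in siControl. Of the osteoblast lineage markers, COL1A1 and SPARC had base means of at least 27571 in every one of the authors' deposited tables, RUNX2 lay between 283 and 432 and ALPL between 330 and 371, while COL1A2 was at 11.0 to 13.2, BGLAP at no more than 4.25 in 2 tables, and SP7 and IBSP were in none. The keratins KRT8 and KRT18 were also high in the authors' deposited tables, between 9528 and 24067, whereas the epithelial markers EPCAM and CDH1 lay between 121 and 214. Of the blood markers, PTPRC was in 1 of the authors' deposited tables, at 5.21, and CD3E in none.

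AP-1 is a dimer of basic leucine zipper proteins, made of a JUN family protein (JUN, JUNB, JUND) with another JUN protein, a FOS family protein (FOS, FOSB, FOSL1, FOSL2) or a relative such as ATF3, and it binds the sequence TGAGTCA. Many of these genes, and the zinc finger factor EGR1, are immediate early genes: growth factors and stress switch them on within minutes, without new protein synthesis, through ERK, JNK and p38 kinases, the serum response factor SRF and short-lived mRNAs. In bone, FOS and FOSL1 act in osteoblasts and osteoclasts, and excess FOS gives osteosarcoma in mice. The name of the set does not hold for IER3, an immediate early gene whose product is a membrane-associated stress protein that modulates ERK signalling and cell death and is not a transcription factor.

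Promoter sequences are shown first because they hold the serum response and AP-1 elements through which this class of genes is usually described. RefSeq windows (GRCh38.p14, 250 bases before to 50 bases after an annotated start) were matched for 8 of the 10 genes, with FOSL1 and IER3 unmatched. Within these windows a CArG box, the site of SRF, was found in 1 of these 8, EGR1, and in 1.29% of all 35116 promoters. EGR1 has 2 copies there, at -105 to -96 and -83 to -74 from its start. Sites farther upstream were not searched for any motif, so a gene without a match here may still have one outside its window. An AP-1 site (TGAGTCA or TGACTCA on either strand) was found in FOSL2 and in 4.95% of promoters, and the cAMP response element TGACGTCA in JUND and in 1.85%. The TATA box letters TATAAA were found in FOS (-33 to -28), FOSB (-30 to -25) and JUNB (-31 to -26). In ATF3 they lay far from the start, at -230 to -225, and are given there as letters only. At any position on either strand they were in 11.5% of promoters. A p53 decamer was in none of the 8 and in 6.63% of promoters, which says only that these letters are not in these windows. The EGR1 promoter follows whole (chr5:138465229-138465528, plus strand, CArG boxes in capitals), and then the stretches around the AP-1 site of FOSL2 (chr2:28392852-28392878, plus strand), the cAMP response element of JUND (chr19:18281805-18281832, minus strand) and the TATA boxes of FOS (chr14:75278785-75278810, plus strand) and JUNB (chr19:12791445-12791470, plus strand), each 5′ to 3′ with the motif in capitals.
EGR1: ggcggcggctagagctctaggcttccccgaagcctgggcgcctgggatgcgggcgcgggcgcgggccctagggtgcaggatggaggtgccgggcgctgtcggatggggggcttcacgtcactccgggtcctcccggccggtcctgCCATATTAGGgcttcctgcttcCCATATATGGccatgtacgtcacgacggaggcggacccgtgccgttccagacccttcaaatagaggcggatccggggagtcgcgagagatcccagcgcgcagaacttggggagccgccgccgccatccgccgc
FOSL2: gccattgtagTGACTCAtctcgggcag
JUND: gccgcccccaTGACGTCAacccacaagg
FOS: aaacgcttgtTATAAAagcagtggct
JUNB: actagcgcggTATAAAggcgtgtggc

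At the other end of the mRNAs, the pentamer ATTTA, the core of the AU-rich elements that make immediate early mRNAs short-lived, occurs in the 3′ UTR of all 10 genes and in 69.6% of coding genes (GENCODE 29, transcript with the longest coding sequence). It is densest in IER3, with 8.14 copies per kb, FOS, with 6.20, and JUNB, with 4.0, against a median of 1.59 over coding genes, while EGR1 (0.81), FOSB (1.39), JUND (1.47) and FOSL1 lie below that median. The longer core TATTTAT is in 8 of the 10, all but JUNB and EGR1, and in 32.7% of coding genes. A heptamer and a hexamer were also looked up because of the knockdown. Both were searched in the longest 3′ UTR of any coding transcript of a gene. The hexamer, GACGTA, was in none of the 10 genes and in 4.78% of coding genes. Genes carrying the heptamer GTATCTA in that 3′ UTR were lower with siRFX7 more often than others. Under DMSO 49.1% of 910 carriers were called lower in the authors' deposited table, against 20.1% of the other genes. Under Nutlin-3a these shares were 43.5% and 18.3%. Carriers and other genes were not matched for the length of the 3′ UTR. These letters had been picked from a scan of the same fold changes, so the shares are a description. FOS is the only one of the 10 that carries it, at bases 387 to 393 of its 806-base 3′ UTR (transcript ENST00000303562.8, bases 1729 to 1755, chromosome 14, plus strand), shown with the heptamer in capitals.
FOS: ttttcaaattGTATCTAgtgcagctga

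Levels of the 4 groups were worked out from the base means and log2 fold changes of the authors' deposited tables, which were normalised separately and were put on 1 scale here. Each group is in 2 tables, and its 2 values differed by at most 0.557% for any of the 10 genes. Per kb of exon, the order of the genes spanned from FOSL1 to FOSB in every group. In siControl with DMSO the level was 3193 normalised counts per kb for FOSL1, 2764 for IER3, 1851 for JUN, 1803 for FOSL2, 1082 for JUND, 819 for JUNB, 661 for EGR1, 204 for ATF3, 45.6 for FOS and 6.54 for FOSB. FOS, the best known of the family, was thus among the 2 lowest of the 10. The neighbours JUN and FOSL2 lay close together and changed places with the knockdown, at 1587 and 1990 in siRFX7 with DMSO. Exon length here counts every annotated exon base of a gene, and an order as close as theirs depends on that choice. EGR1 moved from rank 7 to rank 5 with Nutlin-3a, at 1361 in siControl and 1385 in siRFX7. No test between genes was made.

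**Figure D1:**
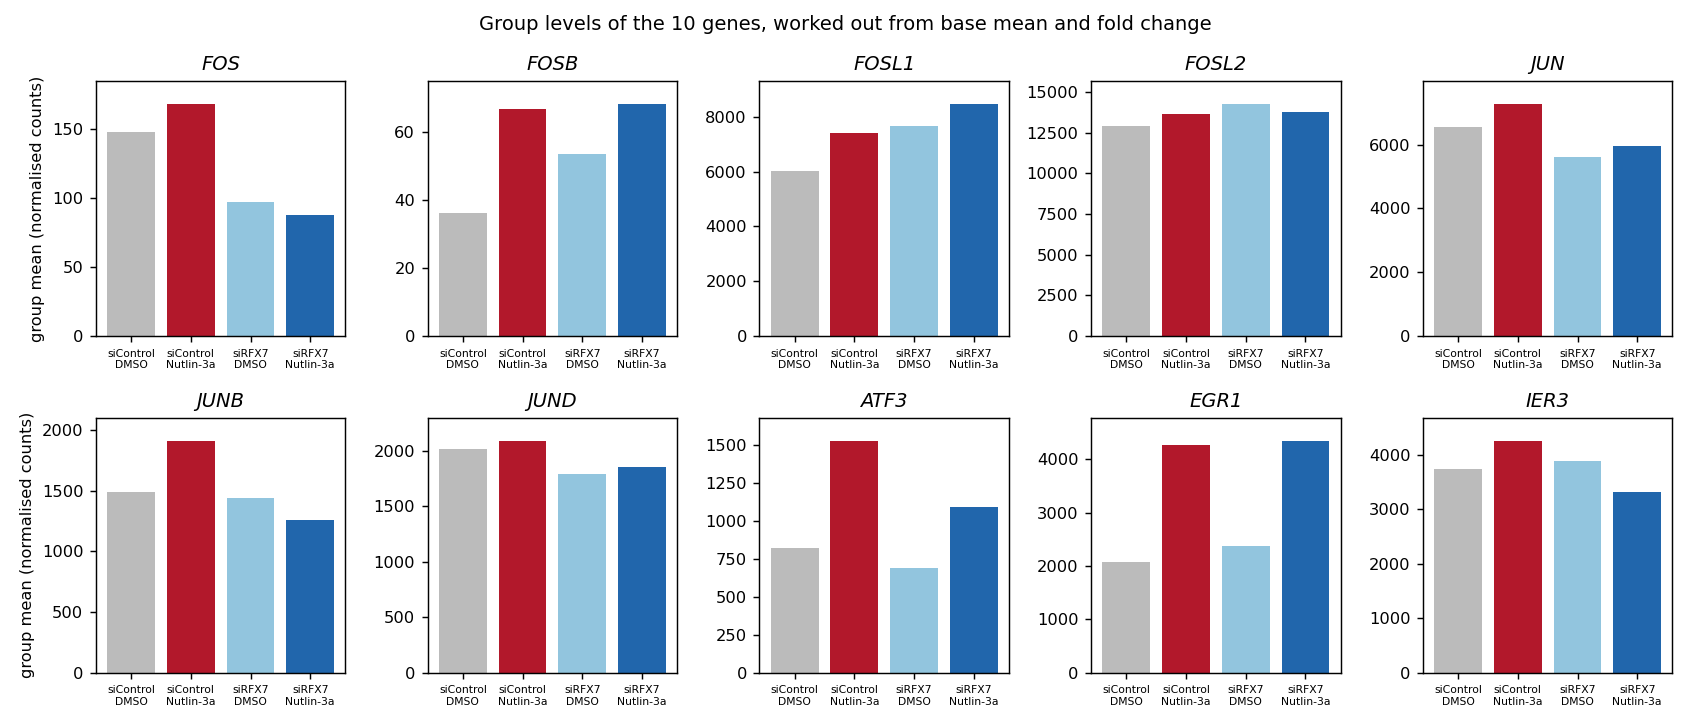
Group levels of the 10 genes in normalised counts (y axis, from 0, a scale of its own for each gene), 1 bar per group of 4 libraries, worked out from base means and log2 fold changes and drawn with no error bars because single libraries are not in the tables. JUNB and IER3 are highest in siControl with Nutlin-3a and lowest in siRFX7 with Nutlin-3a, while EGR1 is high in both Nutlin-3a groups.

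The first comparison asked how the genes respond to p53 activation in cells with RFX7. With Nutlin-3a in siControl, 7 of the 10 genes were called higher and none lower in the authors' deposited table, where 18.3% of all genes were called higher and 19.6% lower, and all 10 values were above 0. Their median log2 fold change was 0.24, against 0.01 over all genes of the table. The shares over all genes include genes of low count. Where the base mean reached 100, 3346 of 13525 genes were called higher and 4271 lower, with a median of -0.03. Of the 10 genes, the rises were largest for EGR1, ATF3 and FOSB.

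EGR1, an immediate early zinc finger activator (ENSG00000120738, chromosome 5, 138465490 to 138469315, plus strand, GENCODE 29 on GRCh38), had a level of 2075 normalised counts in siControl with DMSO and 4270 with Nutlin-3a. Its log2 fold change in the authors' deposited table was 1.04 ± 0.06 (SE; adjusted p 3.50e-56), the highest of the 10. ATF3, a stress-induced bZIP factor and known p53 target (ENSG00000162772, chromosome 1, 212565334 to 212620777, plus strand), went from 823 to 1530. The authors' deposited table gave it 0.90 ± 0.06 (SE; adjusted p 2.46e-51). In percent, EGR1 gained 106% and ATF3 86.0%.

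In the FOS family the response was uneven. FOSB (ENSG00000125740, chromosome 19, 45467995 to 45475179, plus strand) rose by 0.88 ± 0.21 (SE; adjusted p 8.34e-05) in the authors' deposited table, from a level of only 36.3 to 66.8 normalised counts. FOSL1, also called FRA1 (ENSG00000175592, chromosome 11, 65892049 to 65900573, minus strand), rose by 0.30 ± 0.05 (SE; adjusted p 3.04e-07) in the authors' deposited table, from 6026 to 7395. FOS and FOSL2 (FRA2; ENSG00000075426, chromosome 2, 28392448 to 28417312, plus strand) were not called, at 0.19 ± 0.11 (adjusted p 0.187) and 0.08 ± 0.04 (adjusted p 0.0861) in the authors' deposited table. The 95% interval of FOS reached from -0.03 to 0.41, so its change was not resolved at a base mean of 181.

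Of the JUN family, JUNB (ENSG00000171223, chromosome 19, 12791496 to 12793315, plus strand), which in many settings opposes JUN, rose by 0.36 ± 0.07 (SE; adjusted p 1.30e-06) in the authors' deposited table. JUN, the main transactivating partner in AP-1 (ENSG00000177606, chromosome 1, 58780788 to 58784327, minus strand), rose by 0.15 ± 0.04 (SE; adjusted p 1.09e-04) in the same authors' deposited table. JUND, the family member that is usually expressed without stimulation (ENSG00000130522, chromosome 19, 18279760 to 18281622, minus strand), was at 0.05 ± 0.11 (SE; adjusted p 0.775) there, in the authors' deposited table. IER3 (ENSG00000137331, chromosome 6, 30743199 to 30744554, minus strand) rose by 0.18 ± 0.05 (SE; adjusted p 0.00149) in the authors' deposited table.

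In cells with siRFX7 the same treatment gave changes in both directions. Of the 10 genes, 4 were called higher and 2 lower in the authors' deposited table, against 18.7% and 20.3% of all genes, with a median of 0.07 beside 0.01 over all genes. At base means from 100 upwards, 3191 of 12867 genes were called higher and 4047 lower. Of the 10, EGR1 and ATF3 again rose most, by 0.87 ± 0.05 (SE; adjusted p 5.79e-67) and 0.66 ± 0.06 (SE; adjusted p 1.91e-24) in the authors' deposited table. Their levels went from 2377 to 4346 and from 692 to 1094. FOSL1 rose by 0.14 ± 0.05 (adjusted p 0.00716) and JUN by 0.08 ± 0.04 (adjusted p 0.0425) in the authors' deposited table. JUNB and IER3 fell, by 0.19 ± 0.06 (SE; adjusted p 0.00284) and by 0.23 ± 0.04 (SE; adjusted p 5.06e-07) on the log2 scale in the authors' deposited table. FOS at -0.15 ± 0.17, FOSB at 0.35 ± 0.21, FOSL2 at -0.05 ± 0.04 and JUND at 0.05 ± 0.06 were not called in the authors' deposited table, with adjusted p-values from 0.195 to 0.601.

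**Figure D2:**
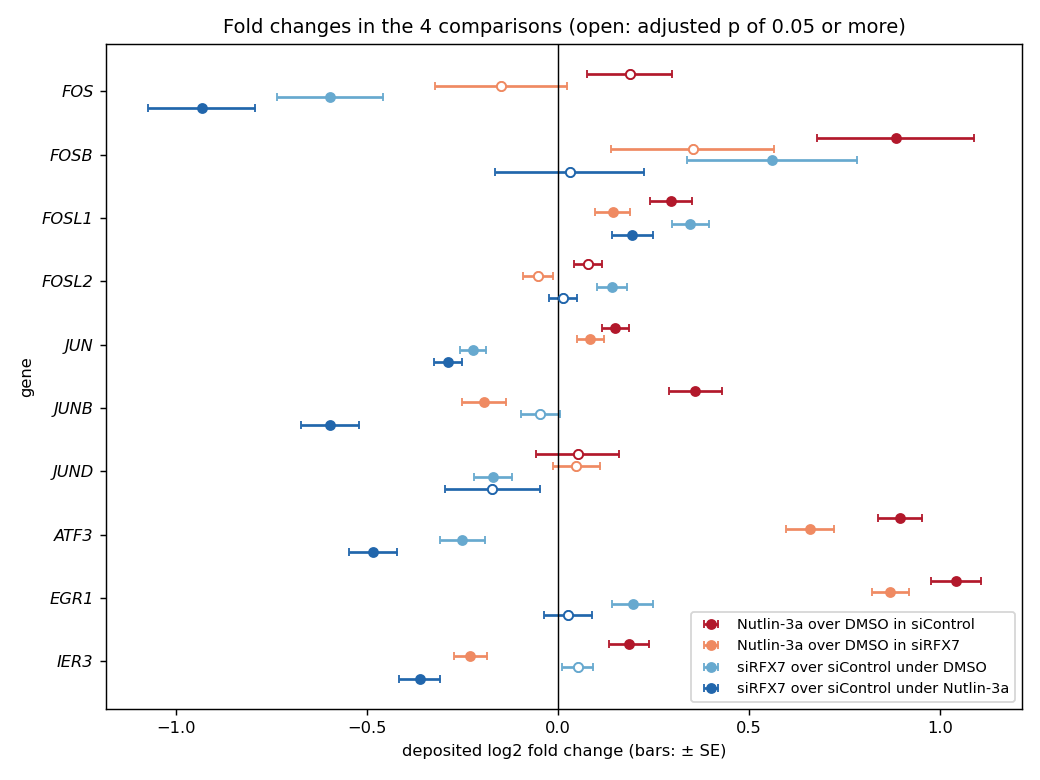
Deposited log2 fold changes (x axis) of the 10 genes in the 4 comparisons, with bars of 1 SE to each side and open points for an adjusted p of 0.05 or more. EGR1 and ATF3 lie farthest above 0 among the Nutlin-3a values of siRFX7, and FOS lies farthest below 0 in both knockdown comparisons.

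The second question was what the RFX7 siRNA does to these genes at a fixed treatment. Under DMSO, 4 genes were called higher and 4 lower in the authors' deposited table, where 19.9% and 17.5% of all genes were, with a median of 0.003 against -0.002 over all genes. The division followed the families in part. In the FOS family, FOSL1 (0.35 ± 0.05, adjusted p 1.43e-11), FOSB (0.56 ± 0.22, adjusted p 0.0346) and FOSL2 (0.14 ± 0.04, adjusted p 0.00174) were higher in the authors' deposited table, while FOS was lower. EGR1 was higher too, by 0.20 ± 0.05 (SE; adjusted p 0.00143) in the authors' deposited table. JUN (-0.22 ± 0.03, adjusted p 1.07e-09), JUND (-0.17 ± 0.05, adjusted p 0.00247) and ATF3 (-0.25 ± 0.06, adjusted p 1.42e-04) were lower in the authors' deposited table. JUNB at -0.05 ± 0.05 (adjusted p 0.516) and IER3 at 0.05 ± 0.04 (adjusted p 0.348) did not pass the test in the authors' deposited table.

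FOS (ENSG00000170345, chromosome 14, 75278774 to 75282230, plus strand) had the lowest value of the 10 under both treatments. Its level was 148 in siControl with DMSO, 168 in siControl with Nutlin-3a, 97.3 in siRFX7 with DMSO and 87.7 in siRFX7 with Nutlin-3a, so both siRFX7 groups lay under both siControl groups. The authors' deposited tables gave log2 fold changes of -0.60 ± 0.14 (SE; adjusted p 9.39e-05) under DMSO and -0.93 ± 0.14 (SE; adjusted p 5.40e-10) under Nutlin-3a. FOS is the gene of the set whose 3′ UTR holds GTATCTA, the site printed above, and the part of that site in its lower level was not tested.

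Under Nutlin-3a, 5 genes were called lower with siRFX7 and 1 higher in the authors' deposited table, against 15.4% and 17.2% of all genes, with a median of -0.23 beside -0.005 over all genes. Here 2717 of the 13177 genes whose base mean reached 100 were lower and 3248 higher. Besides FOS, JUNB (-0.60 ± 0.08, adjusted p 9.37e-14), ATF3 (-0.48 ± 0.06, adjusted p 1.45e-13), IER3 (-0.36 ± 0.05, adjusted p 4.54e-10) and JUN (-0.29 ± 0.04, adjusted p 9.14e-14) were lower in the authors' deposited table. In percent, these are changes of -33.9% for JUNB, -28.5% for ATF3, -22.2% for IER3 and -18.0% for JUN. FOSL1 was higher by 0.19 ± 0.05 (SE; adjusted p 0.00124) in the authors' deposited table. EGR1 did not pass at 0.03 ± 0.06 (adjusted p 0.809), with a 95% interval from -0.10 to 0.15, nor did FOSB, FOSL2 and JUND. This comparison and that of Nutlin-3a in siControl share the siControl libraries with Nutlin-3a, so a high level in that group enters both, with opposite signs.

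The third comparison asked whether the response to Nutlin-3a differed with RFX7 knocked down. For each gene the log2 fold change in siControl was subtracted from that in siRFX7, over tables that share no library. Of the 10 genes, 2 differed at an adjusted p under 0.05, both with a lower response in siRFX7, where 0.764% of 21339 genes were called lower and 0.173% higher. Among the 13216 genes whose base mean reached 100, 155 were called lower and 37 higher. All 10 differences were below 0, with a median of -0.20, while 50.2% of all genes were below 0 with a median of -0.0006.

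JUNB had levels of 1491 in siControl with DMSO, 1913 in siControl with Nutlin-3a, 1444 in siRFX7 with DMSO and 1264 in siRFX7 with Nutlin-3a. It was thus highest in the Nutlin-3a group of siControl and lowest in the Nutlin-3a group of siRFX7, with the DMSO groups between them. The difference of the responses was -0.55 ± 0.09 (SE; 95% interval -0.73 to -0.38; adjusted p 6.52e-07).

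IER3 showed the same order at its ends, with 3748, 4259, 3885 and 3314 in those 4 groups. Its response went from a rise in siControl to a fall in siRFX7, a difference of -0.41 ± 0.07 (SE; 95% interval -0.55 to -0.28; adjusted p 6.05e-07). In both genes the DMSO groups did not differ detectably with siRFX7.

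The other 8 differences did not pass the test over all genes. FOSB had -0.53 ± 0.30 and FOS -0.34 ± 0.21, with 95% intervals from -1.11 to 0.05 and from -0.74 to 0.07, so at their counts a difference as large as that of JUNB could not be resolved. ATF3 had -0.24 ± 0.09 (unadjusted p 0.00597, adjusted p 0.283), EGR1 -0.17 ± 0.08, FOSL1 -0.15 ± 0.07 and FOSL2 -0.13 ± 0.05, whose 95% intervals did not reach 0 but whose adjusted p-values ran from 0.283 to 0.708. JUN was at -0.07 ± 0.05, with an interval from -0.16 to 0.03, which excludes a difference of the size of JUNB or IER3. JUND was at -0.004 ± 0.13.

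**Figure D3:**
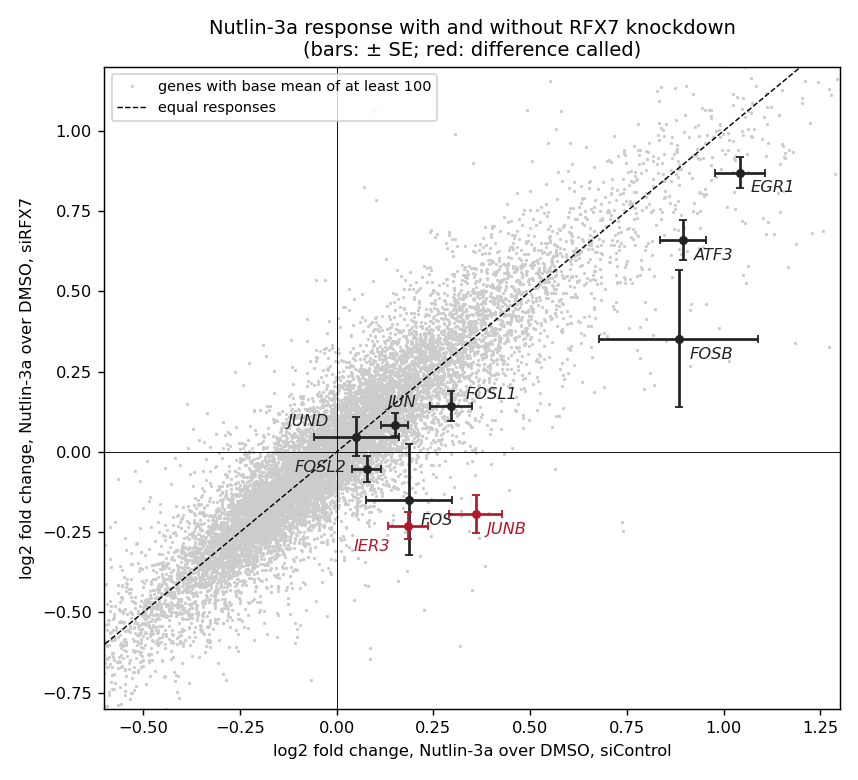
Deposited log2 fold change with Nutlin-3a in siControl (x axis) against siRFX7 (y axis) for the 10 genes, with bars of 1 SE to each side, red where the difference was called, over grey points for genes with a base mean of 100 or more and a dashed line of equal response. All 10 genes lie below the line, and JUNB and IER3 lie right of 0 on the x axis and below 0 on the y axis.

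The precision of these values was not the same in all tables. The deposited SE of each gene was divided by the median SE of the 200 genes of nearest base mean. For JUND this ratio was 2.31 for Nutlin-3a in siControl and 2.55 for siRFX7 under Nutlin-3a, the authors' deposited tables that hold the siControl libraries with Nutlin-3a, and 1.18 and 0.996 in the others. JUNB had 1.38 and 1.42 there against 0.94 and 1.0 elsewhere, and IER3 1.24 in both against 0.94. In 8 of the 10 genes both ratios were higher in those authors' deposited tables than in the others, which was so for 23.3% of the 12747 genes whose base mean reached 100. The 8 include JUN, whose ratios were below 1 throughout (0.82 to 0.87), and FOSB, whose base means did not reach 100. JUND, JUNB, EGR1, FOSL1, IER3, ATF3 and FOSB thus had SEs above the median of genes of like level wherever these 4 libraries entered. ATF3 had ratios of 1.08 and 1.11 there against 0.96 and 0.93 elsewhere. FOSB was close to 1 throughout, at 1.03 and 1.01 there. For EGR1 (1.09 and 1.15) and FOSL1 (1.13 and 1.17) the ratios were above 1 without these libraries too. Whether this came from 1 library or from all 4 is not in the tables, and its part in the differences of JUNB and IER3 was not tested. Of the 2 responses in each difference, those in siRFX7 (JUNB -0.19, IER3 -0.23) do not use these libraries. Those in siControl (JUNB 0.36, IER3 0.18) do.

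**Figure D4:**
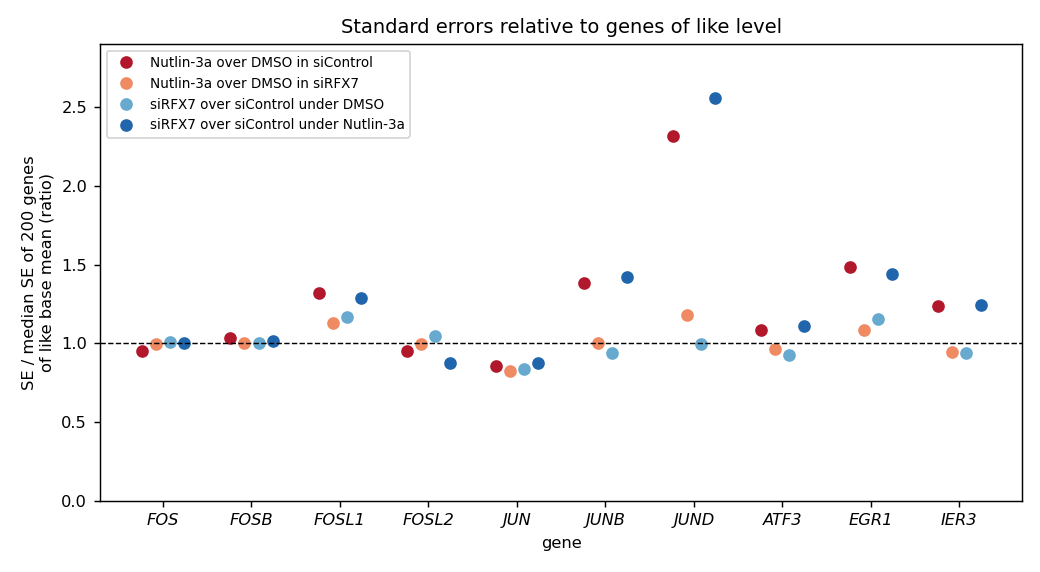
Deposited SE of each gene divided by the median SE of 200 genes of like base mean, for the 4 comparisons, with a line at 1. JUND stands at 2.31 and 2.55 in the comparisons with siControl libraries treated with Nutlin-3a and at 1.18 and 0.996 in the others.

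Some of these genes lie over others on the opposite strand, and whether reads were counted by strand is not given in the sources used here, although the kit keeps the strand. FOSB lies wholly within ERCC1, a DNA repair gene with a base mean of up to 4061 in the authors' deposited tables. ERCC1 was called higher where FOSB was, at 0.11 ± 0.04 (adjusted p 0.0162) with Nutlin-3a in siControl and 0.15 ± 0.04 (adjusted p 2.59e-04) with siRFX7 under DMSO in the authors' deposited tables. These values were smaller than those of FOSB, whose base means were 46.3 to 65.5 in the authors' deposited tables, and the part of ERCC1 reads in FOSB was not tested. JUNB lies wholly within HOOK2, which had a base mean of up to 382 and was called in none of the authors' deposited tables, with values from -0.23 to 0.07. IER3 shares 394 bases with IER3-AS1, which had a base mean of up to 41.9 and was likewise called in none of the authors' deposited tables.

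Other genes of the same pathways were followed in lists, each described by its counts, and genes named as highest or lowest in a list are those called with base means of 100 or more. With Nutlin-3a, 18.3% of all genes were called higher and 19.6% lower in siControl, and 18.7% and 20.3% in siRFX7. With siRFX7 the shares were 19.9% and 17.5% under DMSO and 17.2% and 15.4% under Nutlin-3a. For the difference of responses they were 0.173% and 0.764%. Of the other AP-1 related bZIP genes, 4 of 13 present were called higher and 1 lower with Nutlin-3a in siControl in the authors' deposited table (median 0.04), and 2 of 12 higher and 2 lower in siRFX7 (median -0.04). With siRFX7 under DMSO, 3 of 12 were higher and 2 lower (median -0.03) in the authors' deposited table. With siRFX7 under Nutlin-3a, 3 of 12 were higher and 5 lower in the authors' deposited table (median -0.25). ATF7, a partner of JUN, was the lowest under DMSO at -0.95 ± 0.06 (SE; adjusted p 2.98e-56) and was at -0.90 ± 0.06 under Nutlin-3a, per the authors' deposited tables. Its 3′ UTR carries GTATCTA in 2 copies and that of ATF2 in 1. ATF2 was at -0.09 (adjusted p 0.166) under DMSO and at -0.28 ± 0.05 (adjusted p 3.16e-06) under Nutlin-3a, per the authors' deposited tables, and the part of these sites was not tested. MAF, a large bZIP factor, rose with Nutlin-3a by 0.74 ± 0.11 (SE; adjusted p 2.21e-10) in siControl and was at -0.25 ± 0.14 in siRFX7, per the authors' deposited tables. Its difference of -0.99 ± 0.18 (adjusted p 2.61e-05) was the only one called in that list.

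Among other immediate early genes, 16 of 35 present were called higher and 4 lower with Nutlin-3a in siControl in the authors' deposited table (median 0.10), and 12 higher and 8 lower in siRFX7 (median -0.01). Over all genes these shares were 18.3% and 19.6% in siControl and 18.7% and 20.3% in siRFX7. Where the base mean reached 100, 3346 of 13525 genes were higher and 4271 lower in siControl. The rises were led by BTG2, an antiproliferative p53 target (2.61 ± 0.04 SE in siControl and 2.66 ± 0.05 in siRFX7), PLK3, a stress kinase (1.40 ± 0.06 and 1.39 ± 0.06), and in siControl by ARC (0.99 ± 0.05), in the authors' deposited tables. With siRFX7 under Nutlin-3a, 7 of 35 were higher and 14 lower in the authors' deposited table (median -0.08), and under DMSO 11 of 34 were higher and 9 lower (median 0.08). The shares over all genes were 17.2% and 15.4% under Nutlin-3a and 19.9% and 17.5% under DMSO. KLF2, a zinc finger factor, and the small GTPase RHOB were highest with siRFX7 under Nutlin-3a, at 1.26 ± 0.07 and 1.11 ± 0.04 (SE) in the authors' deposited table. IER5L at -0.83 ± 0.13 and the orphan receptor NR4A2 at -0.68 ± 0.13 were lowest there, in the authors' deposited table. The response to Nutlin-3a differed for 6 of the 35, while 0.173% of all genes were called higher and 0.764% lower. It was higher in siRFX7 for RHOB (0.61 ± 0.06) and KLF2 (0.55 ± 0.11). It was lower for NR4A1 (-0.31 ± 0.08), CTGF (-0.28 ± 0.06), ID3 (-0.28 ± 0.07) and MYC (-0.21), the last of which was named after its value was seen. Over the 35 genes, 28 differences were below 0, with a median of -0.13, while 50.2% of all genes were below 0.

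Lists upstream of the set come next. Of 15 phosphatases and feedback inhibitors of ERK, JNK and p38 in the authors' deposited tables, 9 were higher and 1 lower with siRFX7 under DMSO (median 0.25), and 7 and 1 under Nutlin-3a (median 0.21). Over all genes the shares were 19.9% and 17.5% under DMSO and 17.2% and 15.4% under Nutlin-3a. Where the base mean reached 100, 3575 of 13170 genes were higher and 2970 lower under DMSO. The counts under Nutlin-3a were 3248 and 2717 of 13177. The ERK phosphatase DUSP7 was at 0.58 ± 0.06 and 0.43 ± 0.05 (SE), and DUSP1, itself an immediate early gene, was the one lower, at -0.22 ± 0.05 and -0.18 ± 0.05, in the authors' deposited tables. Of the kinases and serum response factors, 10 of 26 were higher and 3 lower with siRFX7 under DMSO and 10 and 0 under Nutlin-3a (DESeq2), with 0 lower also at an unadjusted p under 0.05, per the authors' deposited tables. MAP2K4, which activates JNK and p38, was at 0.79 ± 0.05 and 0.78 ± 0.05, the ETS factor ELK3 at 0.63 ± 0.04 and 0.49 ± 0.04 and SRF at 0.51 ± 0.06 and 0.36 ± 0.05 (SE) in the authors' deposited tables. ELK4, whose 3′ UTR carries GTATCTA, was at -0.16 (adjusted p 0.0151) under DMSO and -0.04 (adjusted p 0.553) under Nutlin-3a, per the authors' deposited tables. With Nutlin-3a, 12 of 27 genes of this list were lower and 4 higher in siControl and 11 and 3 in siRFX7, per the authors' deposited tables. Of all genes, 19.6% were lower and 18.3% higher in siControl, and 20.3% and 18.7% in siRFX7. SRF, the factor of the CArG boxes shown for EGR1, was at -0.24 ± 0.06 and -0.40 ± 0.05 with Nutlin-3a, per the authors' deposited tables. These are mRNA values, and the part of SRF in the rise of EGR1 was not tested. With Nutlin-3a, 7 of the phosphatases and inhibitors were higher and 3 lower in siControl and 3 and 5 in siRFX7, per the authors' deposited tables. No difference of responses was called in either list by the normal test, with 2 of 15 and 3 of 27 at an unadjusted p under 0.05.

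Genes that textbooks list downstream were also mixed. Of 25 AP-1 targets, 12 were higher and 3 lower with Nutlin-3a in siControl (median 0.26) and 11 and 7 in siRFX7 (median -0.03), per the authors' deposited tables. The shares over all genes were 18.3% and 19.6% in siControl and 18.7% and 20.3% in siRFX7. Where the base mean reached 100, 3346 of 13525 genes were higher and 4271 lower in siControl. HMOX1, the heme oxygenase of oxidative stress, rose by 0.94 ± 0.04 and 1.07 ± 0.05 (SE) in the authors' deposited tables, and it is also known to respond to other factors. CXCL8, the neutrophil chemokine, was at -0.76 ± 0.11 and -1.51 ± 0.12 in the authors' deposited tables. Of the differences of responses, 6 of 25 were called, all lower in siRFX7, led by CXCL8 (-0.75 ± 0.16), CCL2 (-0.64 ± 0.10) and the cyclin gene CCND1 (-0.33 ± 0.05). Over all genes, 0.764% were called lower and 0.173% higher. CCND1 was at 0.26 ± 0.04 (adjusted p 1.30e-11) with Nutlin-3a in siControl and at -0.08 ± 0.04 (adjusted p 0.113) in siRFX7, per the authors' deposited tables. The 25 had a median difference of -0.12. With siRFX7, 13 of 24 of these targets were higher and 2 lower under DMSO (median 0.27), and 8 of 23 higher and 7 lower under Nutlin-3a (median 0.07), per the authors' deposited tables. All genes had shares of 19.9% and 17.5% under DMSO and 17.2% and 15.4% under Nutlin-3a. HBEGF, an EGF receptor ligand, was highest under DMSO at 0.50 ± 0.06 and SPP1, the osteopontin gene, lowest at -0.87 ± 0.16 (SE) in the authors' deposited table, and the 3′ UTR of SPP1 carries GTATCTA. Of 10 partners and targets of EGR1, 5 were higher and 1 lower with Nutlin-3a in siControl and 5 and 3 in siRFX7, per the authors' deposited tables. SDC1 (1.02 ± 0.04 and 1.12 ± 0.04) and EGFR (0.75 ± 0.05 and 0.58 ± 0.07) led these in the authors' deposited tables. With siRFX7, 6 of the 10 were higher and 2 lower under DMSO and 3 and 1 under Nutlin-3a, per the authors' deposited tables. None of the 10 had a called difference of responses, with 2 at an unadjusted p under 0.05.

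**Figure D5:**
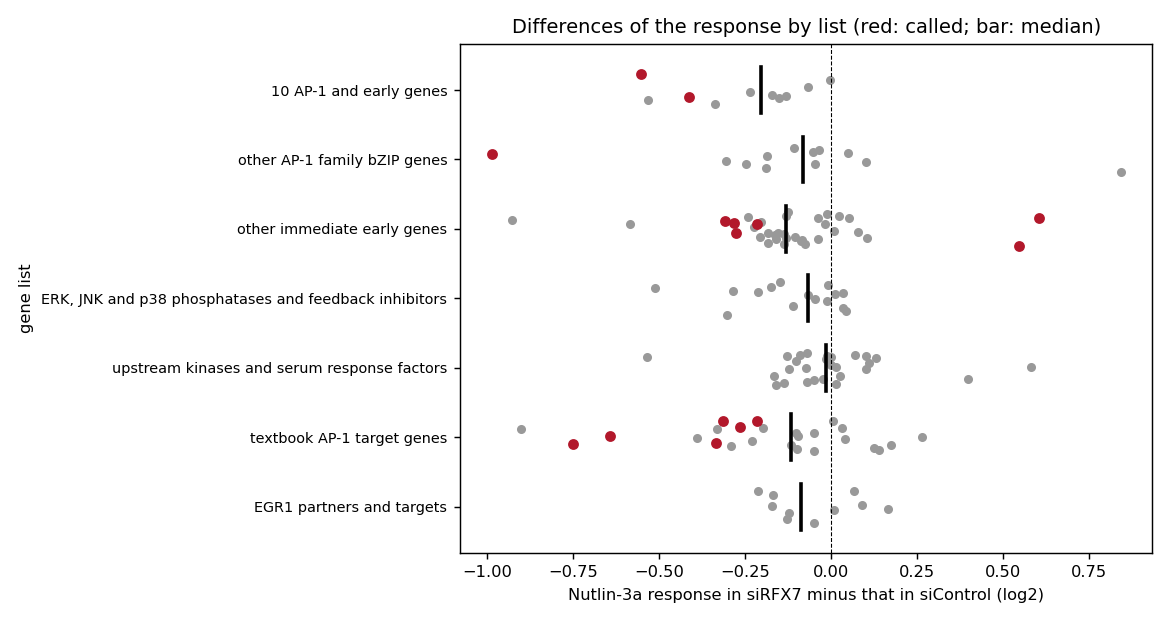
Difference of the responses to Nutlin-3a (x axis, log2, siRFX7 minus siControl) for the 10 genes and the 6 lists, 1 point per gene (red where called, spread vertically for view) and a bar at the median. The 10 genes have a median of -0.20 and all lie below 0.

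The genes whose 4 deposited log2 fold changes were closest to those of EGR1 and ATF3, the members with the largest changes, were sought among 12186 genes with base means of 100 or more. Likeness was the Euclidean distance over the 4 comparisons of the authors' deposited tables. For EGR1 these were ZNF135 at a distance of 0.07, XDH at 0.10 and CALCOCO1 at 0.12, and for ATF3 they were BEX2 at 0.13, CDK5R2 at 0.14 and SUMF1 at 0.18. CALCOCO1 had 1.11, 0.96, 0.18 and 0.03 against 1.04, 0.87, 0.20 and 0.03 for EGR1 with Nutlin-3a in siControl, Nutlin-3a in siRFX7, siRFX7 under DMSO and siRFX7 under Nutlin-3a, per the authors' deposited tables.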

How the data were processed

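Poly(A) RNA of 16 U2OS libraries was sequenced, and each sample was grouped by its title. Per the submitters' processing notes the tools were bcl2fastq 2.19.1.403, Trimmomatic 0.39, FastQC 0.11.9, cutadapt 2.10, SAMtools 1.10, Picard, featureCounts 1.6.5 and DESeq2 1.20.0, with build hg38. The aligner, the annotation, the strand setting of counting and any shrinkage of fold changes are not given in the sources used here. The authors' deposited tables hold, per gene, the base mean (a signal: the mean normalised read count), the log2 fold change and its SE, the Wald score, the p-value and the adjusted p-value. Depth per library is not in the tables, and their base means summed to between 27946376 and 35311111. The deposited score and p-value were used for checks only.

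Direction was settled from RFX7, CDKN1A, MDM2 and the identity between the tables. Group levels came from the base mean B and log2 fold change L, as 2B/(1 + 2 to the power L) for the reference group, scaled across tables by the median log2 ratio over 12747 genes. Levels per kb were divided by GENCODE 29 exon length, the union of all annotated exons of a gene. The difference of responses had the root of the summed squared SEs as its SE, with a two-sided normal p and Benjamini-Hochberg adjustment over 21339 genes. Tested on simulated data with 200 genes changed, it recovered 48% of changes of 0.5 and 66% of changes of 1. Of its calls, 4.95% and 2.94% were false. The simulated noise was normal, independent between genes and drawn from the deposited SEs that the test itself uses. The simulation therefore cannot show how the test does where those SEs are wrong. Intervals are 95%. Analysis used Python 3.11.15, pandas 2.3.3, numpy 2.4.6 and scipy 1.17.1.

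Named genes were the 10 members, RFX7, CDKN1A and MDM2, per list and comparison up to 3 called genes per direction with the largest change at a base mean of at least 100, and the 3 nearest patterns of 2 members. Some genes that this rule or the marker list would name are not reported here. The members and the 6 lists (132 symbols) were chosen with earlier results of these data known. BATF, DUSP4 and SPRY1 were in no table, and CCN1, CCN2, MRTFA and MRTFB were found under CYR61, CTGF, MKL1 and MKL2. Alternatives were other adjusted p thresholds, a size threshold of 0.25, a base mean minimum of 100, genes in all 4 tables, centring on the median gene, rescaled SEs and the difference taken from the knockdown tables.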

Additional observations from a re-analysis of the deposited data

Results flagged for a closer look

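The response to Nutlin-3a differed between siRFX7 and siControl, tested over all genes, for 2 of the 10, JUNB (-0.55) and IER3 (-0.41), on the log2 scale as siRFX7 minus siControl. That test called 0.764% of all genes lower in siRFX7 and 0.173% higher. The same test called MAF (-0.99) among the other bZIP genes. Among the other immediate early genes it called RHOB (0.61) and KLF2 (0.55) with a higher response in siRFX7, and 4 with a lower one, NR4A1 (-0.31), CTGF (-0.28), ID3 (-0.28) and MYC (-0.21). Among the textbook AP-1 targets, 6 had a lower response, CXCL8 (-0.75), CCL2 (-0.64), CCND1 (-0.33), MMP3 (-0.31), CD44 (-0.27) and MMP2 (-0.21). MYC, CD44 and MMP2 were named after their values were seen. The cause of these differences was not tested.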

How the results depend on the processing

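The differences of JUNB and IER3 stayed called under every alternative run, with values from -0.553 to -0.552 and from -0.415 to -0.413 and adjusted p-values up to 1.40e-04 and 3.54e-04. These values could hardly move. Thresholds, filters and rescaled SEs leave the estimate as it is, and centring subtracts a median of only -0.0006. The difference of the knockdown comparisons is nearly the same quantity from the same libraries (correlation 0.9999 over 19344 genes). The narrow range is thus no measure of the spread between libraries. Of 314 values of the 10 genes under alternatives, 299 kept their direction and their side of the threshold, 13 lost the call, 2 gained it and none reversed. Requiring a size of at least 0.25 caused 11 of the 13 losses and moved the members' counts, by its own construction: under DMSO to 2 higher and 2 lower with siRFX7, under Nutlin-3a to 0 higher with siRFX7, and with Nutlin-3a in siRFX7 to 2 higher and 0 lower. FOSB with siRFX7 under DMSO and JUN with Nutlin-3a in siRFX7 lost their call at a threshold of 0.01. FOSL2 with Nutlin-3a in siControl was called at 0.10 and when values were centred (adjusted p 0.0140). Over all genes, the size of 0.25 took the count with siRFX7 under DMSO from 3883 higher and 3405 lower to 2248 and 2253, the count higher with siRFX7 under Nutlin-3a from 3503 to 1933, and the counts lower with Nutlin-3a from 4580 to 2833 in siControl and from 4349 to 2891 in siRFX7. For the difference of responses, 37 higher and 163 lower became 22 and 103 at a threshold of 0.01, the higher count 58 at 0.10, and 24 with rescaled SEs. Centring shifted values by at most 0.03.

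No paired analysis was possible because the tables hold no value of a single library. For the same reason no library was left out in turn. Base means limit FOS and FOSB, whose SEs reach 0.17 and 0.22. With a base mean minimum of 100, FOSB leaves every comparison, so none of its values was run under that alternative. FOS leaves only that of Nutlin-3a in siRFX7, where its base mean was 80.4.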
